A study of Rattus norvegicus with 7 samples.

Results

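Principal cells are the main cell type of the collecting duct, the last part of the kidney tubule, and the nuclei described here were taken for principal cell nuclei by 4 of their marker genes. A nucleus was counted when Aqp2, Aqp3, Aqp4 and Fxyd4 together had 3 or more UMIs (counted RNA molecules), with at least 2 of these genes detected. Nuclei with 3 or more UMIs of Calb1 and Trpv5, which mark the connecting tubule, or with Slc4a1, which marks type A intercalated cells, at 40 or more per 10000 UMIs were left out. This chose 1136 of 30746 nuclei that passed the quality limits (200 or more genes, at most 10000 UMIs, and at most 5% mitochondrial UMIs), out of 37048 barcodes. The nuclei came from archived kidneys of rats of the HSRA line at 4 weeks of age, from a central piece with cortex and medulla, and 3 libraries came from animals labelled 1 kidney and 4 from animals labelled 2 kidneys. The labels also count 3 HSRA-S and 4 HSRA-C animals without tying these names to the titles. The labels do not say how the 1-kidney animals came to have 1 kidney, nor how much cortex and medulla each piece held. Each library was taken as 1 animal. The library names carry a set code, P1117B for 2-kidney replicates 3 and 4 and P1117 for the other 5 libraries.

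Collecting duct principal cells reabsorb water and sodium under hormonal control. Vasopressin acts through its receptor Avpr2 and cyclic AMP to place aquaporin 2 in the apical membrane, and water leaves through aquaporins 3 and 4 on the basolateral side. Aldosterone acts through the mineralocorticoid receptor Nr3c2, which the enzyme Hsd11b2 shields from glucocorticoids, to raise the activity of the epithelial sodium channel, whose subunits are Scnn1a, Scnn1b and Scnn1g. In the inner medulla the duct cells also carry the urea transporter Slc14a2.

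The 1-kidney libraries held few of these nuclei. The numbers were 37, 29 and 154 in 1-kidney replicates 1 to 3, against 207, 194, 243 and 272 in 2-kidney replicates 1 to 4. Their summed UMIs were 79585, 104154 and 525113 in the 1-kidney libraries, against 689767, 713084, 672350 and 996897 in the 2-kidney libraries. With 3 UMIs as the least that counts as detected, the lowest readable level was thus 37.7 CPM (UMIs of a gene scaled to the same total in every library) in 1-kidney replicate 1 and 28.8 CPM in 1-kidney replicate 2, against 3.01 to 5.71 CPM in the other 5 libraries. The median principal nucleus held 1821, 2658 and 2930 UMIs in the 1-kidney libraries, against 2435, 3066, 2194 and 3201 in the 2-kidney libraries (exact permutation test, two-sided, p = 0.571). The median number of genes was 1174, 1587 and 1685 in the 1-kidney libraries, against 1467, 1694, 1348 and 1764 in the 2-kidney libraries (exact permutation p = 0.629). No barcode of a principal nucleus occurred in more than 1 library, while 166 of 36882 barcode sequences in all did.

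Because the 4 marker genes chose the nuclei, their levels describe the choice and were not tested against the other nuclei. Aqp2 stood at 930, 797 and 941 CPM in 1-kidney principal nuclei, against 873, 1262, 866 and 590 CPM in 2-kidney principal nuclei, and the 1-kidney values lay inside the 2-kidney range. Aqp4 spread the most, with 980, 144 and 474 CPM in the 1-kidney libraries, against 522, 379, 431 and 384 CPM in the 2-kidney libraries, where the highest and the lowest value both belonged to 1-kidney libraries. Aqp3 was at 188, 76.8 and 158 CPM in the 1-kidney libraries, against 123, 230, 117 and 123 CPM in the 2-kidney libraries. Fxyd4, a regulator of the sodium pump, was at 490, 365 and 478 CPM in the 1-kidney libraries, against 736, 634, 779 and 555 CPM in the 2-kidney libraries. An Aqp2 UMI was found in 83.5% to 98.5% of the principal nuclei of a library and in 2.15% to 13.4% of proximal tubule nuclei, which should lack it, and free RNA was not subtracted. The 258 nuclei just outside the rule, with 2 marker UMIs, had 10.9 UMIs per 10000 of 7 principal cell genes the rule did not use, the 233 nuclei just inside it, with 3 marker UMIs, had 18.8, and the 903 nuclei with more had 20.1.

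The promoters of 2 rule markers are shown, Aqp2 because vasopressin acts on it through cyclic AMP, and Fxyd4 to set beside it. The duct factor Gata3 binds GATA motifs. They are the 300 bases from 250 before to 50 after the start in RefSeq's GRCr8 table. Capitals mark matches on either strand to a GATA motif, searched as AGATAA. Capitals also mark matches on either strand to the core of the cyclic AMP response element, searched as TGACG. The Aqp2 window is chr7:132590036-132590335 on the plus strand, and the Fxyd4 window is chr4:152785996-152786295 on the minus strand.
Aqp2: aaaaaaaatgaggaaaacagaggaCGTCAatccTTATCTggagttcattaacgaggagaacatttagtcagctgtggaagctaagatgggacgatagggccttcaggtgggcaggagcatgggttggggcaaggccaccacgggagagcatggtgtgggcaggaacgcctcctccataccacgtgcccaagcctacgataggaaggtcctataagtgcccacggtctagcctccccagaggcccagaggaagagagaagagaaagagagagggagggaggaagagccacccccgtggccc
Fxyd4: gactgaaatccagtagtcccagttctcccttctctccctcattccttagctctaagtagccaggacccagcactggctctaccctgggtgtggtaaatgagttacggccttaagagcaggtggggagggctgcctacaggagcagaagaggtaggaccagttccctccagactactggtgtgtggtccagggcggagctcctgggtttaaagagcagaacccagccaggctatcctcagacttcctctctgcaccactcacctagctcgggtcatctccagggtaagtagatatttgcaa
The Aqp2 window held each motif once, without overlap, and the Fxyd4 window held neither. The window of Aqp3, searched too but not shown, also held neither. Of 33469 promoter windows of this length, 11.6% held the GATA motif and 21.2% the core of the cyclic AMP element, so these matches are a description of the letters only.

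Markers outside the rule were compared between principal nuclei and the other nuclei of each library. The sodium channel subunits Scnn1g and Scnn1b, the duct transcription factor Gata3 and Hsd11b2 were each higher in principal nuclei than in the rest of the same library in 7 of 7 libraries. Scnn1g averaged 477 CPM in principal nuclei and 57.8 CPM in the rest, a ratio of 8.26, and Gata3 averaged 689 and 70.3 CPM, a ratio of 9.80. Avpr2, the gene for the receptor through which vasopressin acts, averaged 15.2 CPM in principal nuclei and 1.13 CPM in the rest, but 1-kidney replicates 1 and 2 held 1 UMI of it each, too few to read. The potassium channel Kcnj1 was at 131 CPM in principal nuclei and 75.9 CPM in the rest, a ratio of 1.72, and it is also a gene of the thick ascending limb. These ratios come from the same cells the rule chose and were given no test. The connecting tubule shares most of these transporters, so the ratios do not part principal from connecting tubule nuclei.

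Among all genes at 50 CPM or more that the rule did not use, the ratio of principal to other nuclei was largest for Slc14a2, at 60.4. Its mean of 365 CPM rested mostly on the 1986 CPM of 2-kidney replicate 1. Wnt9b, a signal of the ureteric lineage, followed at 38.5. Slc14a2 and Wnt9b were each higher in principal nuclei in 6 of 7 libraries and at 0 in the principal nuclei of the other one. The zeros were in 1-kidney replicates 1 (Slc14a2) and 2 (Wnt9b), where only 37.7 and 28.8 CPM were readable. Slc14a2 in 1-kidney replicate 2, at 9.60 CPM, was also under that level. A second Slc14a2 identifier was higher in 3 of 7 libraries, with a ratio of 8.08. Grem1, a secreted antagonist of bone morphogenetic proteins, had a ratio of 26.7 and was higher in 7 of 7. Mpped2 averaged 2368 CPM in principal nuclei and 137 CPM in the rest, and Tmem45b averaged 1337 and 73.1 CPM, and both were higher in principal nuclei in 7 of 7 libraries. Levels could differ much between libraries. Itga2, an integrin subunit, reached 515 CPM in 1-kidney replicate 1 and lay between 28.8 and 128 CPM in the other 6 libraries.

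Principal nuclei were a smaller share of the 1-kidney libraries. They made up 1.64%, 0.664% and 3.65% of the quality-passing nuclei of 1-kidney replicates 1 to 3, against 5.38%, 4.43%, 4.12% and 4.70% in 2-kidney replicates 1 to 4. All 3 1-kidney values lay below all 4 2-kidney values, with 1-kidney replicate 3 close to 2-kidney replicate 3. The exact 95% binomial intervals of these 2 libraries, 3.10% to 4.26% and 3.63% to 4.66%, overlapped and cover counting error only. The mean share was 1.99% ± 1.52 in 1-kidney and 4.66% ± 0.536 in 2-kidney libraries (SD, n = 3 and 4), and the two-sided exact permutation test gave p = 0.0286, the smallest it can give for 3 against 4. Adjusted over the 11 exact tests of single values made here, this was p = 0.157, so it did not pass the threshold after correction.

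**Figure D1:**
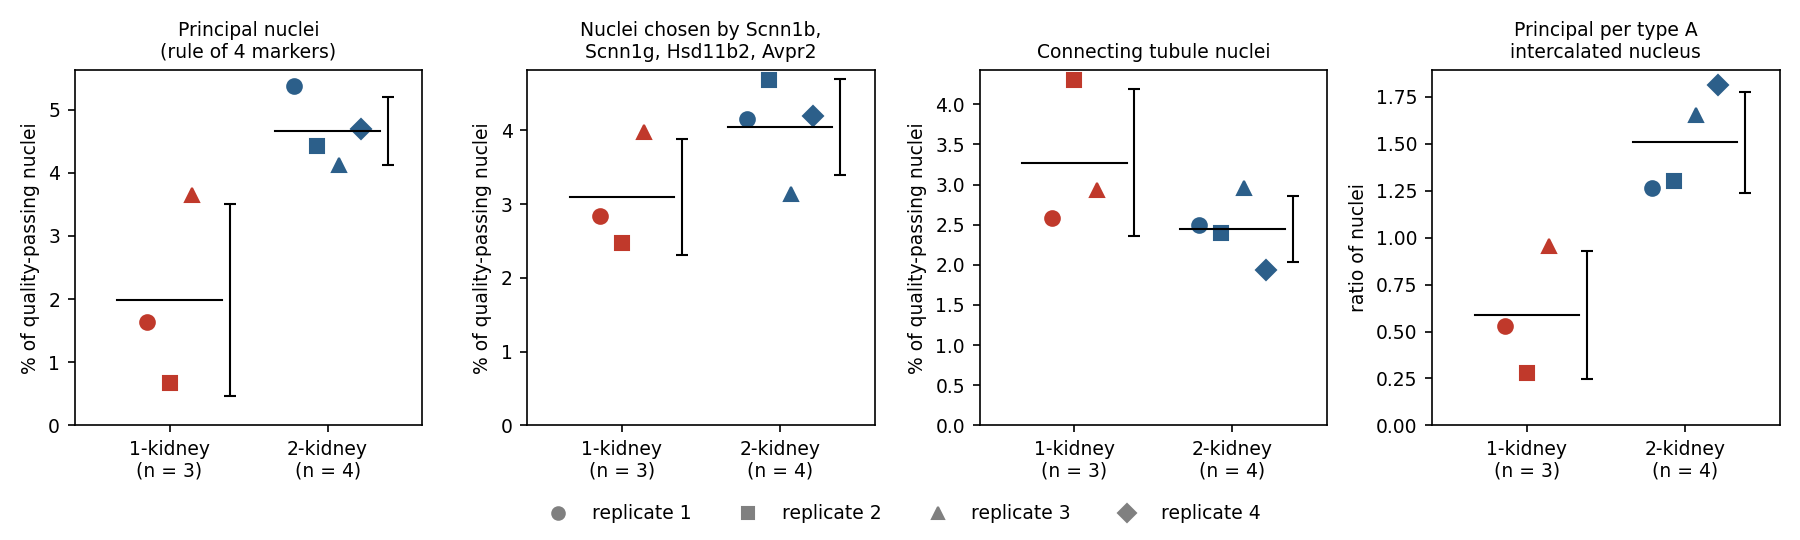
Share of quality-passing nuclei per library for principal nuclei chosen by the 4 rule markers, for nuclei chosen by Scnn1b, Scnn1g, Hsd11b2 and Avpr2, and for connecting tubule nuclei, and the number of principal nuclei per type A intercalated nucleus. Points are libraries, lines are means and bars are SD, and the 3 1-kidney points lie below the 4 2-kidney points in the first and last panels but not in the others.

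Set against the neighbouring intercalated cells, principal nuclei were fewer. The ratios to neighbouring cells use the same counts of principal nuclei as the share, so they are no separate support. There were 0.529, 0.282 and 0.957 principal nuclei per type A intercalated nucleus in the 1-kidney libraries, against 1.26, 1.30, 1.65 and 1.81 in the 2-kidney libraries. The groups did not overlap (exact permutation p = 0.0286, adjusted p = 0.157), and the ratio was chosen after the shares were seen. Type A intercalated nuclei themselves made up 3.09% ± 0.728 of 1-kidney and 3.19% ± 0.824 of 2-kidney nuclei (exact permutation p = 0.886). Connecting tubule nuclei, which come just before the duct, made up 3.27% ± 0.911 of 1-kidney and 2.45% ± 0.416 of 2-kidney nuclei (exact permutation p = 0.143). Principal nuclei per connecting tubule nucleus were 0.638, 0.154 and 1.24 in 1-kidney libraries, against 2.16, 1.85, 1.40 and 2.43 in 2-kidney libraries (exact permutation p = 0.0571, adjusted p = 0.21).

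The size of the difference in share depended on how principal nuclei were found. Because the rule asks for a number of marker UMIs, fewer principal cells and less marker RNA in each nucleus cannot be told apart by it. When every nucleus was first thinned to 1000 UMIs, the share was 0.995% ± 0.792 in 1-kidney and 2.18% ± 0.715 in 2-kidney libraries, and the groups overlapped (exact permutation p = 0.0857). That left out 2900 shallower nuclei of 1-kidney and 3435 of 2-kidney libraries. A second choice of nuclei by Scnn1b, Scnn1g, Hsd11b2 and Avpr2, none of them a rule marker, gave 2.84%, 2.47% and 3.98% in 1-kidney libraries, against 4.16%, 4.68%, 3.14% and 4.20% in 2-kidney libraries (exact permutation p = 0.143). This choice, added after the data were seen, found 1133 nuclei, and 50.8% of them were also principal nuclei by the rule. Of the principal nuclei by the rule, 50.6% were also in this choice. Without 1-kidney replicates 1 and 2, which had under 50 principal nuclei each, the difference shrank to -1.01 percentage points and rested on 1-kidney replicate 3 alone (exact permutation p = 0.4, where the smallest possible is 0.2).

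In the nuclei chosen by Scnn1b, Scnn1g, Hsd11b2 and Avpr2 the rule markers could be compared between the groups without having chosen the cells. Fxyd4 was at 126, 90.6 and 275 CPM in 1-kidney nuclei, against 380, 497, 331 and 401 CPM in 2-kidney nuclei. Its log2 fold change was -1.22 ± 0.32 (SE), with every 1-kidney library below every 2-kidney library, but the adjusted p of edgeR's quasi-likelihood test was 0.294. Aqp2 was at 395, 439 and 656 CPM in 1-kidney nuclei, against 734, 1057, 623 and 468 CPM in 2-kidney nuclei, with overlapping groups and an adjusted p of 0.503 by the same edgeR test. An Aqp2 UMI was found in 53.1%, 60.2% and 72.0% of these nuclei in the 1-kidney libraries, against 83.1%, 86.8%, 70.3% and 70.4% in the 2-kidney libraries (exact permutation p = 0.171). The 9 proximal tubule markers summed to 188 to 289 per 10000 UMIs of these nuclei in 1-kidney libraries and to 59.7 to 230 in 2-kidney libraries. The 3 connecting tubule markers outside the rule summed to 19.1 to 44.3 in 1-kidney libraries and to 12.2 to 40.6 in 2-kidney libraries. The part of either in these values was not tested.

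The urea transporter Slc14a2 was found in a minority of the principal nuclei, and mostly in 2 of the 2-kidney libraries. After thinning to 1000 UMIs, a Slc14a2 UMI was found in 0%, 0% and 4.03% of principal nuclei in the 1-kidney libraries, against 22.9%, 0.526%, 19.7% and 2.21% in the 2-kidney libraries (exact permutation p = 0.286). The unthinned shares were 0%, 3.45% and 5.19% in the 1-kidney libraries, against 25.6%, 1.03%, 25.9% and 3.68% in the 2-kidney libraries. High shares thus occurred in 2-kidney replicates 1 and 3 and in no other library, and proximal tubule nuclei, which should lack the gene, had 0.116% to 1.83% after thinning, highest in 2-kidney replicate 1. Leaving out each library in turn moved the difference in mean share between -13.6 and -6.12 percentage points. The unthinned 0 of 37 nuclei in 1-kidney replicate 1 allow a share of up to 8.11%, and the thinned 0 of 30 allow up to 10.0%. The thinned 0 of 29 in 1-kidney replicate 2 allow up to 10.3%, so these libraries had too few nuclei to show a share of a few percent. The files hold Slc14a2 under 2 identifiers, and for the stronger of them the level was 0, 9.60 and 85.7 CPM in 1-kidney principal nuclei, against 1986, 4.21, 394 and 75.2 CPM in 2-kidney principal nuclei.

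Principal nuclei with a Slc14a2 UMI had lower levels of the sodium channel subunits than those without one. In 2-kidney replicate 1, the 53 nuclei with the transcript had 0.822 Scnn1b UMIs per 10000 and the 154 without it had 3.37. In 2-kidney replicate 3 the values were 1.05 in 63 nuclei with it and 3.67 in 180 without it. Hsd11b2 was also lower, at 0.435 with and 4.10 without in replicate 1, and at 0.584 with and 3.15 without in replicate 3. Fxyd4 was higher, at 10.8 with and 5.90 without in replicate 1 and 10.8 with and 6.78 without in replicate 3. Gata3 was at 14.1 with and 6.42 without in replicate 1 and 11.9 with and 7.56 without in replicate 3. Ehf, an epithelial transcription factor, stood at 13.3 with and 4.39 without in replicate 1, and at 10.4 with and 6.38 without in replicate 3. Scnn1a was lower in nuclei with the transcript in each of the 6 libraries that had any. Pooled over all libraries, Scnn1a was at 0.825 with and 2.90 without per 10000 UMIs, while Aqp2 differed less, at 7.66 with and 8.95 without. Most nuclei with the transcript came from 2-kidney replicates 1 and 3, so the pooled values also carry differences between libraries. Among nuclei without the transcript, Scnn1a was at 190 and 217 CPM in these replicates, the lowest values of any library. Scnn1g and Hsd11b2 were also lower with it in 6 of 6 libraries and Pax2 was higher in 6 of 6, while Fxyd4 was higher in 5 and Gata3 in 2. The other 5 libraries held 10 such nuclei or fewer each, and these values were given no test. Aqp2 and Fxyd4 are rule markers, so their values here also describe the choice of nuclei.

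**Figure D2:**
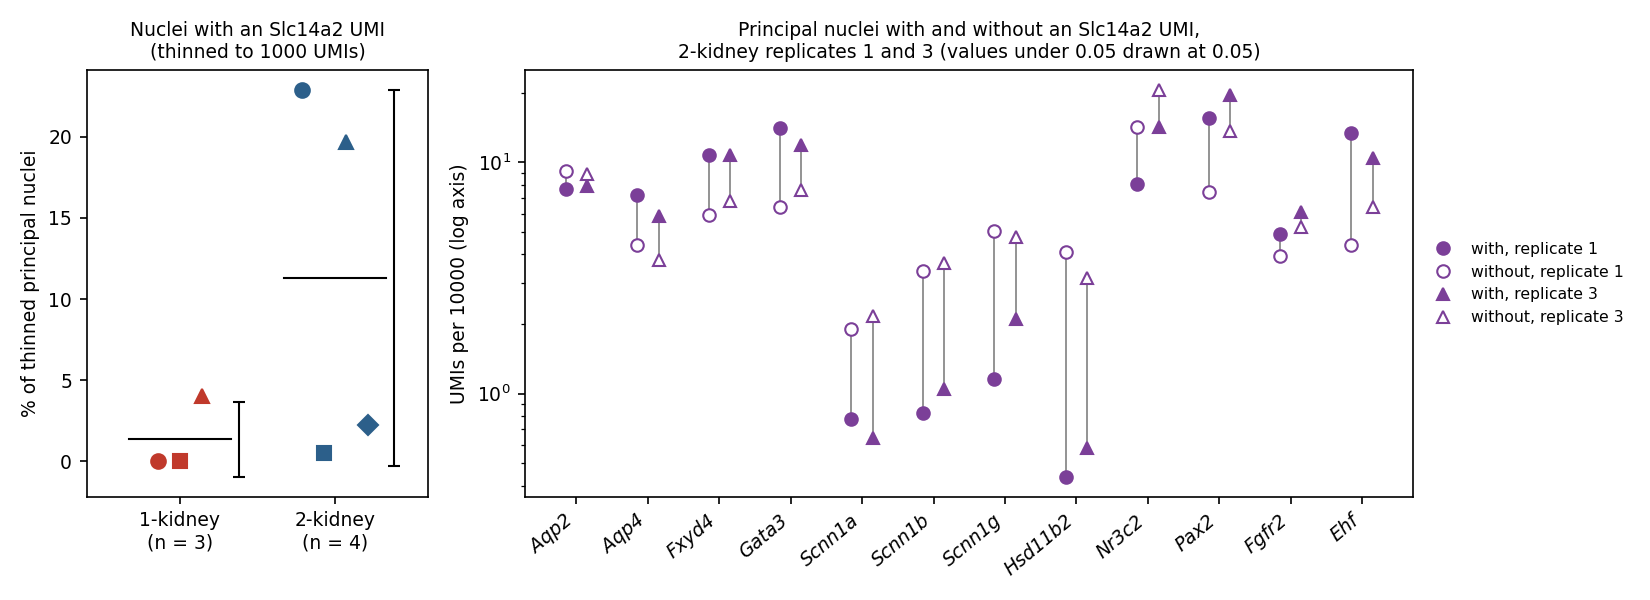
Left, share of principal nuclei with a Slc14a2 UMI after thinning to 1000 UMIs, per library with mean and SD, in 3 1-kidney and 4 2-kidney libraries. Right, UMIs per 10000 on a log axis for duct genes in nuclei with (filled) and without (open) a Slc14a2 UMI in 2-kidney replicates 1 and 3. Scnn1a, Scnn1b, Scnn1g and Hsd11b2 lie lower, and Fxyd4, Gata3 and Ehf higher, in nuclei with it. Aqp2, Aqp4 and Fxyd4 are rule markers, so their levels also describe the choice of nuclei.

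Across all genes, no gene of the principal nuclei passed the test between the groups. Of 8166 genes tested on the summed counts of each library, 0 (0%) had an adjusted p under 0.05 by edgeR's quasi-likelihood test, the smallest adjusted p was 0.506, and DESeq2 also called 0. At an unadjusted p under 0.05 there were 611 genes by edgeR (7.48%), 294 higher (3.6%) and 317 lower (3.88%) in 1-kidney nuclei, and 430 by DESeq2. The 1-kidney values all lay above the 2-kidney values for 386 genes (4.73%) and all below for 446 genes (5.46%). No gene is therefore called changed, and fold changes are given as values, as log2 of 1-kidney over 2-kidney with the standard error. Without 2-kidney replicate 2, 4 genes passed, Ednrb, Tnfrsf19, Pfkfb3 and Synpo2, and leaving out any other single library gave 0. Both P1117B libraries are 2-kidney, so set and group partly coincide. Without the P1117B libraries, and with the library set as a term, 0 genes passed. In some genes named below, as Vegfa, Myo5b, Cog5 and Resf1, the 2-kidney values also lay apart by set, and in others, as Scnn1a, they did not. Without members with 3 or more UMIs of other cell types, 9 genes passed, all higher in 1-kidney nuclei, Cyp4a8, Hspa5, Aspg, Osgin1, Chd1l, Tdrp, Slco1a6, G6pc and Ust5r. G6pc is an enzyme of glucose production known in the proximal tubule, and that setting did not use proximal tubule markers. In that setting the folds of the proximal tubule markers tested ran from 0.74 ± 0.58 for Miox to 1.59 ± 0.39 for Slc34a1. With all members their median was 0.10. The part of proximal tubule RNA in the 9 genes was not tested. The setting kept 33, 11 and 64 nuclei in the 1-kidney libraries, against 69, 72, 147 and 132 in the 2-kidney libraries.

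The genes that passed without 2-kidney replicate 2 were chosen by that omission, so its distance from the other 2-kidney libraries in them is fixed by the choice and their values are a description. Ednrb, the endothelin B receptor through which endothelin lowers sodium reabsorption, was at 302, 202 and 305 CPM in 1-kidney nuclei, against 53.6, 672, 37.2 and 75.2 CPM in 2-kidney nuclei. Pfkfb3, an enzyme that drives glycolysis, was at 163, 115 and 133 CPM in 1-kidney nuclei, against 632, 107, 799 and 403 CPM in 2-kidney nuclei. With all libraries their folds were 0.35 ± 0.73 for Ednrb and -1.86 ± 0.50 for Pfkfb3, and the groups overlapped in both.

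Among the sodium channel subunits, 1 had groups that did not overlap, beside 4.73% of all genes that lay above. Scnn1a, the alpha subunit that aldosterone induces, was at 603, 518 and 409 CPM in 1-kidney nuclei, against 157, 300, 178 and 239 CPM in 2-kidney nuclei. Every 1-kidney library lay above every 2-kidney library, and the fold was 1.16 ± 0.26 with an adjusted p of 0.506 by edgeR. Scnn1b was at 440, 374 and 350 CPM in 1-kidney nuclei, against 261, 527, 300 and 431 CPM in 2-kidney nuclei, with a fold of -0.02 ± 0.27. Scnn1g was at 641, 451 and 381 CPM in 1-kidney nuclei, against 389, 623, 408 and 449 CPM in 2-kidney nuclei, and its fold was 0.00 ± 0.26. Among principal nuclei without a Slc14a2 UMI the fold of Scnn1a was 1.06 ± 0.24, and without 1-kidney replicates 1 and 2 it was 0.90 ± 0.36. In the nuclei outside the principal class Scnn1a was at 155, 143 and 157 CPM in 1-kidney libraries, against 72.2, 109, 75.0 and 105 CPM in 2-kidney libraries.

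Other genes of the aldosterone pathway are given by role. Sgk1, the kinase that aldosterone and glucocorticoids induce, was at 503, 336 and 381 CPM in 1-kidney nuclei, against 309, 188, 262 and 169 CPM in 2-kidney nuclei, with a fold of 0.77 ± 0.26 (edgeR adjusted p = 0.597). Its groups did not overlap. The mineralocorticoid receptor Nr3c2 was at 1872, 1536 and 2259 CPM in 1-kidney nuclei, against 1232, 2775, 1896 and 2989 CPM in 2-kidney nuclei, so the 1-kidney values lay inside the 2-kidney range. Hsd11b2 had a fold of 0.06 ± 0.28 and Nedd4l, the ubiquitin ligase that removes the channel, -0.25 ± 0.23. Of the 23 genes tested in the sodium and aldosterone list, 15 had a fold above 0, beside 47.6% of all genes, 0 passed, and the median fold was 0.04, beside -0.03 over all genes tested. In this list 3 genes lay above without overlap, beside 4.73% of all genes, and 0 below, beside 5.46%.

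**Figure D3:**
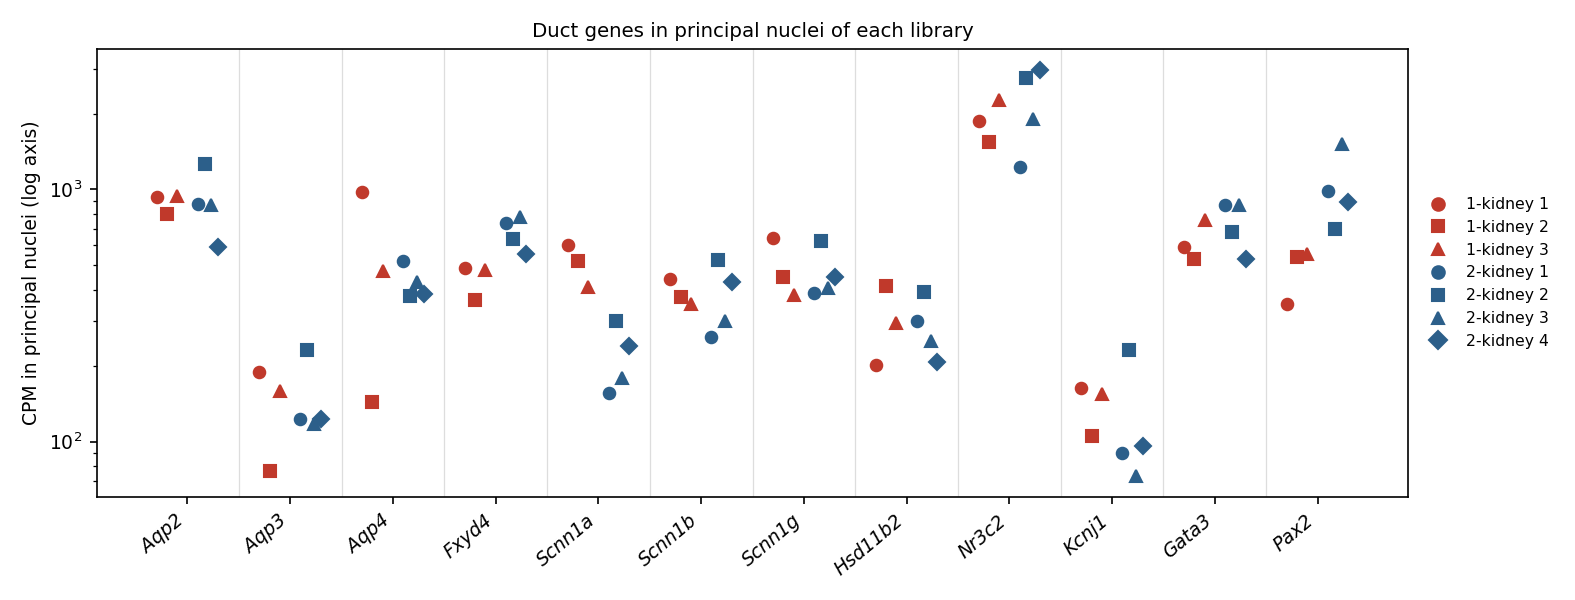
CPM of 12 duct genes in the principal nuclei of each library, on a log axis, with 1-kidney libraries in red to the left and 2-kidney libraries in blue to the right of each gene. Scnn1a lies higher and Pax2 lower in every 1-kidney library than in every 2-kidney library, while Scnn1b and Scnn1g overlap. Aqp2, Aqp3, Aqp4 and Fxyd4 chose the nuclei, so their levels describe the choice.

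In the list of vasopressin and water genes, 7 of 21 tested genes had a fold above 0 and the median was -0.18, and 0 passed. Avpr2 itself was at 12.6, 9.60 and 13.3 CPM in 1-kidney nuclei, against 13.0, 22.4, 22.3 and 13.0 CPM in 2-kidney nuclei, and these levels were below the filter of the test. Adenylyl cyclase 6 (Adcy6), which makes cyclic AMP after vasopressin, had a fold of -0.02 ± 0.23. Myo5b, a motor that carries aquaporin 2 vesicles, was at 264, 288 and 299 CPM in 1-kidney nuclei, against 322, 376, 528 and 479 CPM in 2-kidney nuclei (-0.60 ± 0.24). Creb1, the cyclic AMP response factor, was at 37.7, 57.6 and 60.9 CPM in 1-kidney nuclei, against 87.0, 72.9, 87.8 and 130 CPM in 2-kidney nuclei (-0.78 ± 0.32). In both genes the 1-kidney libraries were the 3 lowest. The Creb1 value of 1-kidney replicate 1 rested on 3 UMIs, the lowest readable level of that library. Of the 21 tested genes of the list, 3 lay below without overlap, beside 5.46% of all genes, and 1 lay above, beside 4.73%. The gene above was Vamp2, a vesicle fusion protein, with a fold of 0.44 ± 0.44.

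The tonicity and urea list had the lowest median of the 15 gene lists, -0.52 over 8 genes, with 3 above 0. Nfat5, the transcription factor that responds to high salt, was at 578, 509 and 773 CPM in 1-kidney nuclei, against 977, 841, 1019 and 1017 CPM in 2-kidney nuclei (-0.64 ± 0.24). The taurine transporter Slc6a6, one of its targets, was at 88.0, 57.6 and 110 CPM in 1-kidney nuclei, against 149, 129, 129 and 195 CPM in 2-kidney nuclei (-0.73 ± 0.29). The amino acid transporter Slc38a2 lay the opposite way, at 302, 240 and 282 CPM in 1-kidney nuclei, against 168, 216, 103 and 174 CPM in 2-kidney nuclei (0.70 ± 0.27). The groups did not overlap in any of these 3 genes. Over the 8 tested genes of the list, 3 lay below without overlap, beside 5.46% of all genes, and 1 above, beside 4.73%. In nuclei without a Slc14a2 UMI, the fold of Nfat5 was -0.49 ± 0.24.

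In the list of duct regulators, 10 of 30 tested genes had a fold above 0, the median was -0.25 and 0 passed. Of these 30 genes, 3 lay below without overlap, beside 5.46% of all genes, and 0 above, beside 4.73%. Pax2, a transcription factor of the ureteric lineage, was at 352, 538 and 554 CPM in 1-kidney nuclei, against 986, 694, 1516 and 891 CPM in 2-kidney nuclei. All 1-kidney values were below all 2-kidney values, with a fold of -1.09 ± 0.29. Gata3 had overlapping groups and a fold of -0.24 ± 0.25. Pax2 was higher in nuclei with a Slc14a2 UMI, at 15.6 per 10000 UMIs against 8.23 in those without one, pooled over libraries. Among nuclei without one, its fold was -0.93 ± 0.28, with edgeR's adjusted p at 0.715.

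The receptor Fgfr2, through which fibroblast growth factors drive branching of the ureteric bud, had the smallest unadjusted p of all genes, 0.000168. It was at 126, 125 and 179 CPM in 1-kidney nuclei, against 422, 299, 544 and 310 CPM in 2-kidney nuclei, and no 1-kidney library reached the lowest 2-kidney library. The fold was -1.40 ± 0.29 with an edgeR adjusted p of 0.506. The direction was the same in connecting tubule nuclei, at 24.0, 40.2 and 65.8 CPM in 1-kidney libraries, against 118, 89.4, 118 and 151 CPM in 2-kidney libraries. In the nuclei outside the principal class it was at 29.0 to 44.3 CPM in 1-kidney libraries and 49.0 to 73.6 CPM in 2-kidney libraries. Of the 30 growth factor genes tested, 13 had a fold above 0 and the median was -0.20. The epidermal growth factor receptor Egfr was at 452, 269 and 545 CPM in 1-kidney nuclei, against 678, 614, 714 and 689 CPM in 2-kidney nuclei (-0.66 ± 0.25). Vegfa, a growth factor for blood vessels, was at 528, 672 and 606 CPM in 1-kidney nuclei, against 515, 517, 275 and 215 CPM in 2-kidney nuclei (0.63 ± 0.30). The groups of Egfr and Vegfa did not overlap. For Vegfa, the 2-kidney libraries of set P1117 (515 and 517 CPM) lay close to 1-kidney replicate 1 (528 CPM). The lower 2-kidney values, 275 and 215 CPM, belonged to set P1117B. Among principal nuclei without a Slc14a2 UMI, the fold was -0.45 ± 0.26 for Egfr, 0.50 ± 0.31 for Vegfa and -1.36 ± 0.28 for Fgfr2. Of the 30 tested, 4 lay below without overlap, beside 5.46% of all genes, and 2 above, beside 4.73%.

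Among the other genes with the smallest p below 0, the ephrin Efnb2, a ligand of Eph receptors, was at 0, 9.60 and 24.8 CPM in 1-kidney nuclei, against 122, 30.9, 132 and 81.3 CPM in 2-kidney nuclei. The 0 UMIs in 1-kidney replicate 1 allow up to 37.7 CPM, which is above the 30.9 CPM of 2-kidney replicate 2. Ptpn14, a phosphatase of the Hippo pathway, was at 151, 144 and 248 CPM in 1-kidney nuclei, against 461, 338, 446 and 342 CPM in 2-kidney nuclei. In the nuclei outside the principal class Ptpn14 also lay lower, at 92.7 to 124 CPM in 1-kidney libraries, against 184 to 210 CPM in 2-kidney libraries. Klhl14 was at 75.4, 173 and 126 CPM in 1-kidney nuclei, against 265, 224, 379 and 239 CPM in 2-kidney nuclei. Outside the principal class it was at 29.9 to 34.3 CPM in 1-kidney libraries, against 54.8 to 84.2 CPM in 2-kidney libraries. Cog5, a subunit of a Golgi tethering complex, and Ints9, a subunit of Integrator, had folds of -1.21 ± 0.29 and -2.27 ± 0.55. Outside the principal class Cog5 was at 76.6 to 107 CPM in 1-kidney libraries, against 123 to 196 CPM in 2-kidney libraries. Ints9 had 1 UMI in 1-kidney replicate 1, under the 37.7 CPM readable there, against 31.9 to 51.2 CPM in 2-kidney nuclei. The groups of Ptpn14, Klhl14 and Cog5 did not overlap, beside 5.46% of all genes that lay below. These genes were chosen by smallest p in the same libraries, which favours such a separation, so it is no support. For Efnb2 and Ints9 an overlap could not be read at the depth of the small libraries. In the nuclei outside the principal class the groups of Efnb2 and Ints9 overlapped. The edgeR adjusted p of Efnb2, Ptpn14, Klhl14, Cog5 and Ints9 was 0.506 each. Without 1-kidney replicates 1 and 2 the fold of Ptpn14 was -0.68 ± 0.35, and without 1-kidney replicate 3 that of Efnb2 was -4.08. Among principal nuclei without a Slc14a2 UMI, the fold was -1.74 ± 0.54 for Efnb2, -0.95 ± 0.29 for Klhl14 and -0.90 ± 0.25 for Ptpn14.

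Those with the smallest p above 0 included a chaperone and a lipid enzyme. Hspa5, the main chaperone of the endoplasmic reticulum, was at 591, 269 and 162 CPM in 1-kidney nuclei, against 60.9, 142, 95.2 and 80.2 CPM in 2-kidney nuclei, with a fold of 1.67 ± 0.38, and 1-kidney replicate 1 was highest. Without 1-kidney replicates 1 and 2 its fold was 0.77 ± 0.41, and without replicate 1 alone 1.07. Without members with UMIs of other cell types it was 2.28 ± 0.43, in the setting that did not use proximal tubule markers. In the rest of the nuclei it was at 567, 203 and 273 CPM in 1-kidney libraries, against 110, 294, 139 and 139 CPM in 2-kidney libraries, where the groups overlapped. Cyp4a8, a fatty acid hydroxylase that the proximal tubule also expresses, was at 364, 346 and 223 CPM in 1-kidney principal nuclei, against 123, 161, 168 and 126 CPM in 2-kidney principal nuclei, and stood higher in the rest of the nuclei, at 797, 689 and 809 CPM in 1-kidney libraries, against 291, 575, 530 and 536 CPM in 2-kidney libraries. Its fold was 1.01 ± 0.25, and 0.62 ± 0.32 without 1-kidney replicates 1 and 2. Without members with UMIs of other cell types it was 2.09 ± 0.34. That setting kept nuclei with proximal tubule UMIs, and the proximal tubule markers tested also had folds above 0 in it. Ccdc80 had a fold of 2.13 ± 0.48, Resf1 of 1.09 ± 0.26 and Nexmif of 1.41 ± 0.35, each with an edgeR adjusted p of 0.506 and no overlap between the groups. The choice by smallest p favours such a separation. In the rest of the nuclei Resf1 was at 390 to 467 CPM in 1-kidney libraries, against 209 to 330 CPM in 2-kidney libraries. Nexmif was there at 30.4 to 34.4 CPM, against 12.3 to 22.5 CPM, while the groups of Ccdc80 overlapped there. Without 1-kidney replicates 1 and 2 the fold of Resf1 was 0.69 ± 0.35 and that of Nexmif 0.47 ± 0.35, and without 1-kidney replicate 2 alone that of Nexmif was 0.88.

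**Figure D4:**
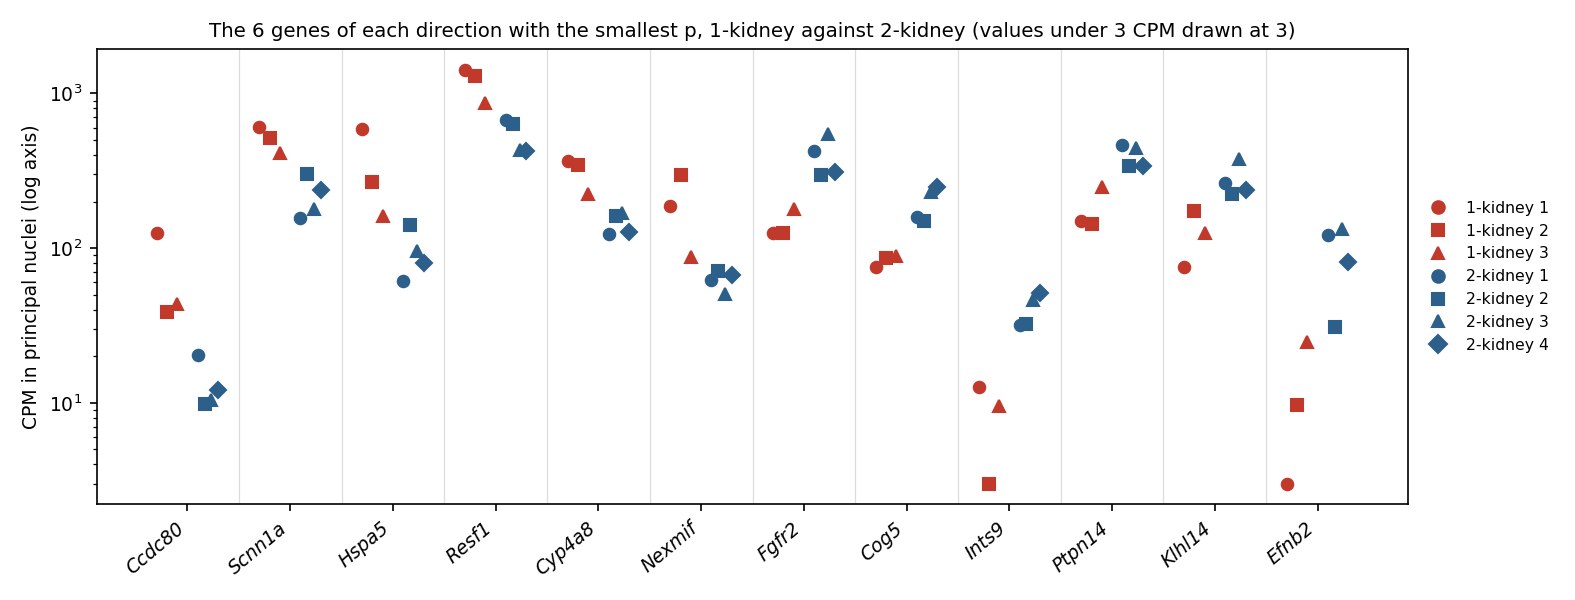
CPM in the principal nuclei of each library, on a log axis, for the 6 genes of each direction with the smallest p, 1-kidney libraries in red on the left and 2-kidney libraries in blue on the right. The groups lie apart as plotted, which the choice by smallest p favours. For Ints9 and Efnb2 the low 1-kidney points are under the readable level, and the edgeR adjusted p was 0.506 for each gene. Values under 3 CPM are drawn at 3.

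Other pathways were described by their lists. In the unfolded protein list, to which Hspa5 belongs, 13 of 19 tested genes had a fold above 0 with a median of 0.49, and 5 of them, Hspa5, Edem1, Pdia3, Sel1l and Dnajc3, had every 1-kidney library above every 2-kidney library, beside 4.73% of all genes. In the glucocorticoid list, 10 of 13 genes were above 0 with a median of 0.42. Fkbp5, the chaperone that the receptor induces, was at 226, 221 and 217 CPM in 1-kidney nuclei, against 76.8, 104, 141 and 175 CPM in 2-kidney nuclei (0.80 ± 0.28). The prostaglandin and endothelin list had 3 of 13 genes above 0 and a median of -0.39. The prostaglandin receptor Ptger3, which opposes vasopressin, was at 0, 9.60 and 9.52 CPM in 1-kidney nuclei, against 24.6, 40.7, 31.2 and 36.1 CPM in 2-kidney nuclei. Its 0 UMIs in 1-kidney replicate 1 allow up to 37.7 CPM, so an overlap could not be read there. The fatty acid oxidation list had 14 of 28 above 0 and a median of 0.00. The cholesterol list had 8 of 12 above 0 with a median of 0.30, and the Notch list 3 of 11 with a median of -0.23. The potassium list had 7 of 9 above 0 with a median of 0.20, the claudin list 10 of 18 with 0.09, the immediate early and heat shock list 12 of 15 with 0.31, and the cell cycle list 5 of 6 with 0.45. No gene of any list passed the test, and the lists were chosen with results of these data known.

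**Figure D5:**
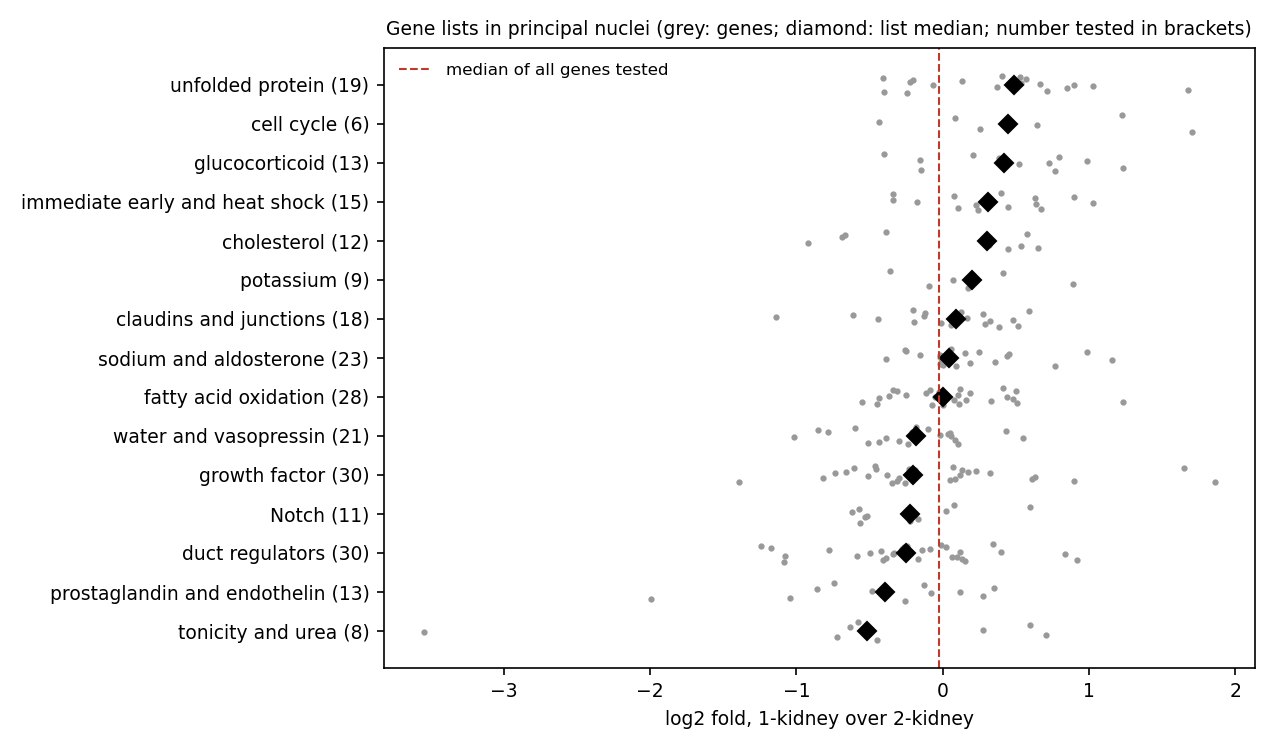
Log2 fold of 1-kidney over 2-kidney for the tested genes of each list in principal nuclei, with grey points for genes and a black diamond for the list median. The dashed line is the median of all 8166 genes, -0.03, and the list medians run from -0.52 for tonicity and urea to 0.49 for the unfolded protein list.

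The effect could also be set beside that in the neighbouring cells of the same libraries. Of 8128 genes tested for a difference in effect between principal and connecting tubule nuclei, 1 (0.0123%) passed, and 508 (6.25%) had an unadjusted p under 0.05, 227 with a higher effect in principal nuclei (2.79%) and 281 with a lower one (3.46%). Tmem178a, the gene that passed, was at 289, 461 and 428 CPM in 1-kidney principal nuclei, against 238, 360, 238 and 319 CPM in 2-kidney principal nuclei. In connecting tubule nuclei it was at 192, 220 and 191 CPM in 1-kidney libraries, against 346, 386, 513 and 364 CPM in 2-kidney libraries, where the groups did not overlap. The fold was 0.44 in principal and -0.98 in connecting tubule nuclei, and the difference was 1.43 ± 0.25 (edgeR with the library as a block, adjusted p = 0.0309). Tmem178a no longer passed with DESeq2, with 5 or more marker UMIs, with 500 or more genes, without the P1117B libraries, without both small libraries, without any 1 of the 1-kidney libraries, or without 2-kidney replicate 3, with differences of 1.28 to 1.66. It also did not pass without members with UMIs of other cell types, where the difference was 0.83 and its fold in principal nuclei turned to -0.10 ± 0.31. Principal nuclei with a Slc14a2 UMI had less Tmem178a, at 0.868 per 10000 UMIs, against 3.49 in those without one, pooled over libraries. Among principal nuclei without one its fold was 0.30 ± 0.23, and the part of the Slc14a2 nuclei in the difference was not tested. Against type A intercalated nuclei, 0 of 6979 genes (0%) passed by edgeR and 0 by DESeq2, with 412 genes (5.9%) by edgeR, 258 higher (3.7%) and 154 lower (2.21%), and 173 by DESeq2 at an unadjusted p under 0.05.

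Tacc2 and Itpkb, an inositol phosphate kinase, had the smallest p in that second test, with an edgeR adjusted p of 0.138 each. Tacc2 was at 4197, 1181 and 2352 CPM in 1-kidney principal nuclei, against 832, 2645, 1038 and 1342 CPM in 2-kidney principal nuclei, and in type A nuclei at 723, 756 and 1143 CPM in 1-kidney libraries, against 984, 1597, 1466 and 1425 CPM in 2-kidney libraries. The groups overlapped in both classes. In the comparison with connecting tubule nuclei, Kitlg, the ligand of the Kit receptor, was next after Tmem178a, with a difference of 1.20 ± 0.25 (edgeR adjusted p = 0.147). It was at 854, 365 and 480 CPM in 1-kidney principal nuclei, against 204, 523, 262 and 428 CPM in 2-kidney principal nuclei. In connecting tubule nuclei Kitlg was at 216, 194 and 338 CPM in 1-kidney libraries, against 270, 536, 369 and 500 CPM in 2-kidney libraries, and both classes overlapped between the groups.

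Markers of other cell types were present in the principal nuclei of every library. The 9 proximal tubule markers summed to 161, 204 and 127 per 10000 UMIs in 1-kidney principal nuclei, against 165, 127, 93.1 and 55.7 in 2-kidney principal nuclei, and to 333, 309 and 272 in the remaining 1-kidney nuclei, against 259, 286, 183 and 153 in the remaining 2-kidney nuclei. The 8 intercalated markers summed to 4.52, 3.74 and 3.68 in 1-kidney principal nuclei, against 2.87, 2.80, 1.84 and 1.83 in 2-kidney principal nuclei. The groups did not overlap in this sum. After thinning to 1000 UMIs, the share of principal nuclei with such a UMI was 13.3%, 37.9% and 20.8% in 1-kidney libraries, against 19.9%, 25.3%, 18.4% and 12.9% in 2-kidney libraries (exact permutation p = 0.543), beside 8.83% to 17.0% of proximal tubule nuclei. Unthinned, it was 16.2%, 62.1% and 46.8% in 1-kidney libraries, against 42.0%, 53.1%, 28.8% and 32.7% in 2-kidney libraries, so the groups overlapped in both. The 5 thick ascending limb markers summed to 2.64, 9.70 and 11.5 in 1-kidney principal nuclei, against 18.0, 15.6, 12.7 and 12.9 in 2-kidney principal nuclei, with every 1-kidney library lower. The 4 thin limb markers summed to 0.13, 0.10 and 0.25 in 1-kidney principal nuclei, against 0.65, 0.41, 0.55 and 0.47 in 2-kidney principal nuclei, again without overlap. The sums of 1-kidney replicates 1 and 2 were under the lowest readable level of those libraries. The 1 thin limb marker tested, Aqp1, which the proximal tubule also expresses, had a fold of -1.31 ± 0.48. The part of the thin limb markers in the Slc14a2 and tonicity values was not tested. The 3 urothelium markers were at or near 0 in every library. Free RNA was not subtracted, and the part of these transcripts in the gene values was not tested.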

How the data were processed

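Each library came as a matrix of raw UMI counts deposited by the authors, and per the submitters' processing notes Cell Ranger 7.0 was used. No source used here names the genome build. Gene symbols are those of the deposited feature tables (25399 genes). The members and gene lists were chosen with earlier results of these data known. Genes were named by a rule of smallest p: where fewer than 6 of a direction passed, the 6 with the smallest p of that direction are given as values, and list members may be named. Replicate numbers follow accession order and pair nothing.

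Connecting tubule nuclei had 3 or more Calb1 and Trpv5 UMIs with Slc12a3 under 20 and Slc4a1 under 40 per 10000 UMIs, and type A nuclei 2 or more Slc4a1 UMIs at 40 or more per 10000. Proximal tubule nuclei had Slc34a1 at 200 or more per 10000. Counts were summed per library and tested with edgeR 4.0.16 (quasi-likelihood, TMM, filterByExpr, Benjamini-Hochberg) in R 4.3.3, and DESeq2 1.42.0 as an alternative. Differences in effect used the library as a block. The tests were run on simulated data first. Single values were compared by exact two-sided permutation tests over libraries. The p-values set a group difference against the variation between these libraries only. Scrublet's automatic threshold (scanpy 1.11.5) marked at most 3 barcodes in a library, so it had not worked, and doublets were kept. Removing the expected 0.8% per 1000 barcodes by score was an alternative.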

Additional observations from a re-analysis of the deposited data

Results flagged for a closer look

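The 1-kidney effect on Tmem178a differed between principal and connecting tubule nuclei by 1.43 ± 0.25 on the log2 scale, by a test of the difference itself (edgeR quasi-likelihood test with the library as a block, adjusted p = 0.0309). The fold was 0.44 in principal nuclei, where the groups overlapped, and -0.98 in connecting tubule nuclei, where they did not. Leaving out each library in turn gave differences of 1.28 to 1.57 and adjusted p of 0.00824 to 0.221. Without members carrying 3 or more UMIs of thick ascending limb, distal convoluted tubule, podocyte, endothelial, fibroblast or immune markers the difference was 0.83 and did not pass. There the fold in principal nuclei turned to -0.10 ± 0.31. The difference also did not pass with DESeq2, with 5 or more marker UMIs, with 500 or more genes, without the P1117B libraries or without both libraries of under 50 members.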

How the results depend on the processing

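No paired analysis was possible because the replicate numbers follow accession order and the libraries of the groups share no animal. The difference in share of principal nuclei, -2.67 percentage points, kept its direction in every alternative. Its unadjusted exact p was no longer under 0.05 after thinning to 1000 UMIs (-1.18), with the choice by Scnn1b, Scnn1g, Hsd11b2 and Avpr2 (-0.946), without nuclei with a Slc14a2 UMI (-2.08), without the P1117B libraries (-2.92, where p cannot fall below 0.1) and without both libraries of under 50 members (-1.01, where p cannot fall below 0.2). Leaving out each library gave -3.50 to -2.01, where p cannot fall below 0.0667. Median UMIs and genes turned round without both small libraries (206 and 117) and ranged from -484 to 70 and from -188 to 67.8 with each library left out. The share with an intercalated marker ranged from -2.03 to 10.3, and that with a Slc14a2 UMI from -13.6 to -6.12.

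Genes past the threshold numbered 44 with no filter on low counts, 9 without members with 3 or more UMIs of other cell types, and 0 to 4 with each library left out (4 without 2-kidney replicate 2). The difference from connecting tubule nuclei gave 13 genes with no filter, 2 with markers at 10 or more per 10000 UMIs, 0 with DESeq2, without the P1117B libraries, with 500 or more genes, without members with UMIs of other types and without both small libraries, and 0 to 7 with each library left out (7 without 2-kidney replicate 2, 0 without 1-kidney replicate 1 or 2-kidney replicate 3). That from type A nuclei gave 4 with no filter, 1 with 5 or more marker UMIs, 1 with markers at 10 or more per 10000 UMIs, and 0 to 2 with each library left out (2 without 2-kidney replicate 2). The Slc4a9 difference from type A nuclei turned to -0.19 with markers at 10 or more per 10000 UMIs and to -4.51 without members with UMIs of other types. The choices by 4 other genes, without Slc14a2 nuclei and without both small libraries were added after the data were seen. The causes were not tested.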
